A study of Drosophila sechellia and Drosophila melanogaster and Drosophila simulans with 18 samples.

Results

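Whole adult females of *D. simulans* were set against whole adult females of *D. melanogaster*, both kept on control food, for the 291 genes that carry the same unique name in both expression tables and reached 1 FPKM in at least 1 of the species. FPKM is a count of sequenced fragments corrected for gene length and library size. The tables hold 15372 genes for *D. simulans* and 17649 for *D. melanogaster*. Most *D. simulans* genes carry a generic identifier in place of a name, and 462 names occurred once in each table and were shared. Of these, 171 were under 1 FPKM in both species, among them 93 small RNA genes, 20 male reproductive genes and 20 chemosensory genes. Another 5 reached 1 FPKM but were listed at 0 in 1 species, all of them microRNA genes, which left 286 genes with a ratio.

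The series asked how dietary L-DOPA, a precursor of dopamine, acts on the transcriptomes of *D. simulans*, *D. melanogaster* and *D. sechellia*, and holds 18 libraries, 3 for each species and food. The groups compared here were *D. simulans* strain 14021-0251.195 and *D. melanogaster* strain 14021-0231.36, each given control instant medium for 24 hr before RNA extraction. The same strains fed for the same time on medium holding L-DOPA at 10 mg/mL gave other libraries, whose values are set beside the control ones. For some genes the value of *D. sechellia* strain 14021-0428.25 on control food is given as well. All flies were females collected 0 to 3 days after eclosion, several to a library, from stocks reared on cornmeal medium at 20 degrees Celsius with 16 h of light and 8 h of dark. The labels give no genotype beyond the strain number, and 1 strain stands for each species.

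*D. simulans* and *D. melanogaster* are closely related cosmopolitan species that live side by side on decaying fruit, and females of both can be told apart by the hydrocarbons on their cuticle. Hybrids between them are sterile or inviable, and several genes known for that incompatibility are among the shared names. Differences in the level of a messenger RNA between such species can arise in the gene itself or elsewhere in the genome, and whole-body RNA adds differences in the proportions of tissues.

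Each deposited value combined the 3 libraries of a species and food, so neither an error nor a test between the species could be computed, and every difference below is a description of those pools. In whole flies, fewer cells of a type and less RNA per cell cannot be told apart. The tables were normalized separately for each species and rest on different genome assemblies and gene models, so differences between the tables cannot be told apart from differences between the species. To set a level across them, the log2 ratio of *D. simulans* over *D. melanogaster* was centred on the median shared gene, whose uncentred value was -0.26, and all folds and log2 ratios below are after this centring. The files hold no read counts, so the depth behind a value is not shown.

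The flies were described by the authors as females, and the markers of females were high in both species. *Yp2*, which encodes a yolk protein, stood at 16329 FPKM in *D. simulans* and 6764 FPKM in *D. melanogaster*. The eggshell gene *dec-1* stood at 284 FPKM in *D. simulans* and 301 FPKM in *D. melanogaster*. Of 23 shared genes on the list of male reproductive genes, 20 summed to 1.83 FPKM in *D. simulans* and 2.91 FPKM in *D. melanogaster*, with no gene above 0.673 FPKM in *D. simulans* or 0.974 FPKM in *D. melanogaster*. The other 3 were *janA*, *Acp54A1* and *fzo*, described below.

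Levels ran in parallel between the species. Across the 286 genes, log2 FPKM in *D. simulans* and *D. melanogaster* had a Pearson correlation of 0.83 and a Spearman correlation of 0.80, as a description over genes, which are not independent replicates and share the pools. Centred log2 ratios had quartiles of -0.88 and 0.84, a 5th percentile of -2.57 and a 95th percentile of 2.10. The median gene differed by 1.82-fold in either direction.

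At least 2-fold higher in *D. simulans* were 58 genes (20.3% of 286) and at least 2-fold lower were 64 (22.4%), so 42.7% lay past 2-fold in either direction. Past 4-fold were 17 genes higher and 24 lower, and past 16-fold 5 higher and 6 lower. Of the genes past 2-fold, 53 of the 58 and 54 of the 64 had at least 1 FPKM in both species. A gene that reached the minimum in only 1 species had to differ, though not necessarily by 2-fold. Those of them past 2-fold are part of these counts.

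The balance between higher and lower genes depended on the scaling. Without centring all ratios were lower by 0.26, with centring on genes of at least 10 FPKM in both species by 0.19, and with the tables rescaled to the same sum by 0.74, all on the log2 scale. Of the genes past 2-fold, 47.5% were higher in *D. simulans* with the median shared gene at 0, against 33.1% without centring, 36.4% with centring on genes of at least 10 FPKM and 15.8% with equal sums. Past 2-fold under all 4 scalings were 23 genes higher in *D. simulans* (8.04% of 286) and 64 lower (22.4%). A centred ratio between 0 and 0.74 is therefore negative under at least 1 of the other scalings.

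**Figure D1:**
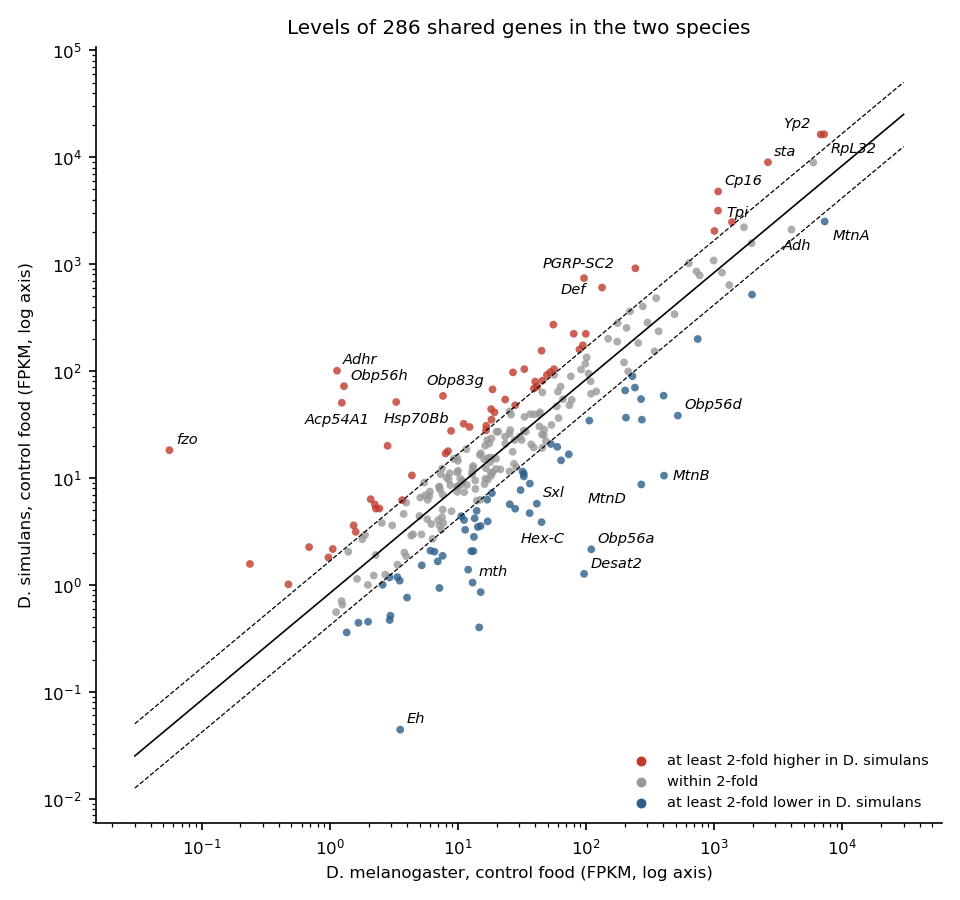
Each point is 1 of the 286 shared genes, with its FPKM in *D. simulans* on the vertical axis and in *D. melanogaster* on the horizontal axis, both logarithmic, on control food. The solid line marks the median shared gene, the dashed lines a 2-fold difference from it, with 58 genes above the upper line and 64 below the lower line.

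Values near the limits show how sharp they are. At the limit of 1 FPKM, *bap* and *Lim1* were just inside, with 1.01 and 1.12 FPKM in their higher species, and *Acp53C14a* and *pros* just outside, with 0.974 and 0.964 FPKM. At the limit of 2-fold higher in *D. simulans*, a centred log2 ratio of 1, *kappaB-Ras* (1.013) and *Dcr-1* (1.019) were inside and *cav* (0.990) and *dor* (0.987) outside. On the lower side *PGRP-LA* (-1.016) and *Obp59a* (-1.059) were inside and *AGO1* (-0.999) and *Ras85D* (-0.992) outside.

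The lowest ratio among genes with at least 1 FPKM in both species was that of *Desat2* (FBgn0261743 in *D. simulans*, FBgn0043043 in *D. melanogaster*), a fatty acid desaturase of cuticular hydrocarbon synthesis. It stood at 1.27 FPKM in *D. simulans* and 96.3 FPKM in *D. melanogaster*, 63.6-fold lower in *D. simulans*. On L-DOPA food it stood at 0.880 FPKM in *D. simulans* and 118 FPKM in *D. melanogaster*. The related desaturase *Desat1*, which acts in the same synthesis, differed little, with 785 FPKM in *D. simulans* and 769 FPKM in *D. melanogaster* (centred log2 ratio 0.29, negative with equal sums). The *D. simulans* table places *Desat2* on chromosome 3R from 12850827 to 12852744 in ASM75419v3, and the Ensembl annotation of BDGP6 places the *D. melanogaster* gene on 3R from 12436248 to 12437857. In the *D. melanogaster* table *Desat2* shares its locus entry with *CG17207*, which stood at 0.379 FPKM.

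All 4 shared metallothioneins, small cysteine-rich proteins that bind copper, cadmium and zinc, were at least 2-fold lower in *D. simulans*, also under all 4 scalings. Over all shared genes 22.4% were lower, and the same share under all 4 scalings. *MtnB* stood at 10.5 FPKM in *D. simulans* and 405 FPKM in *D. melanogaster*, 32.2-fold lower. *MtnD* stood at 8.69 FPKM in *D. simulans* and 269 FPKM in *D. melanogaster*, 25.9-fold lower. Its *D. simulans* entry spans 16872 bp and also holds an unnamed gene at 14.1 FPKM, while its *D. melanogaster* entry spans 340 bp. The 2 more abundant genes differed less.

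*MtnC* stood at 519 FPKM in *D. simulans* and 1970 FPKM in *D. melanogaster*, and *MtnA*, among the 5 most abundant shared genes, at 2506 FPKM in *D. simulans* and 7273 FPKM in *D. melanogaster*, 2.43-fold lower. Summed over the 4 genes, the level was 3044 FPKM in *D. simulans* and 9917 FPKM in *D. melanogaster*. *MtnB* has a locus of its own in both tables, on 3R from 4973498 to 4974143 in *D. simulans* (ASM75419v3) and from 20503102 to 20503746 in *D. melanogaster* (BDGP6), of nearly equal length at 646 and 645 bp. On L-DOPA food *MtnB* was again low at 11.1 FPKM in *D. simulans* against 306 FPKM in *D. melanogaster*, while *MtnC* came within 2-fold with 843 FPKM in *D. simulans* and 1558 FPKM in *D. melanogaster* (centred log2 ratio -0.61).

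**Figure D2:**
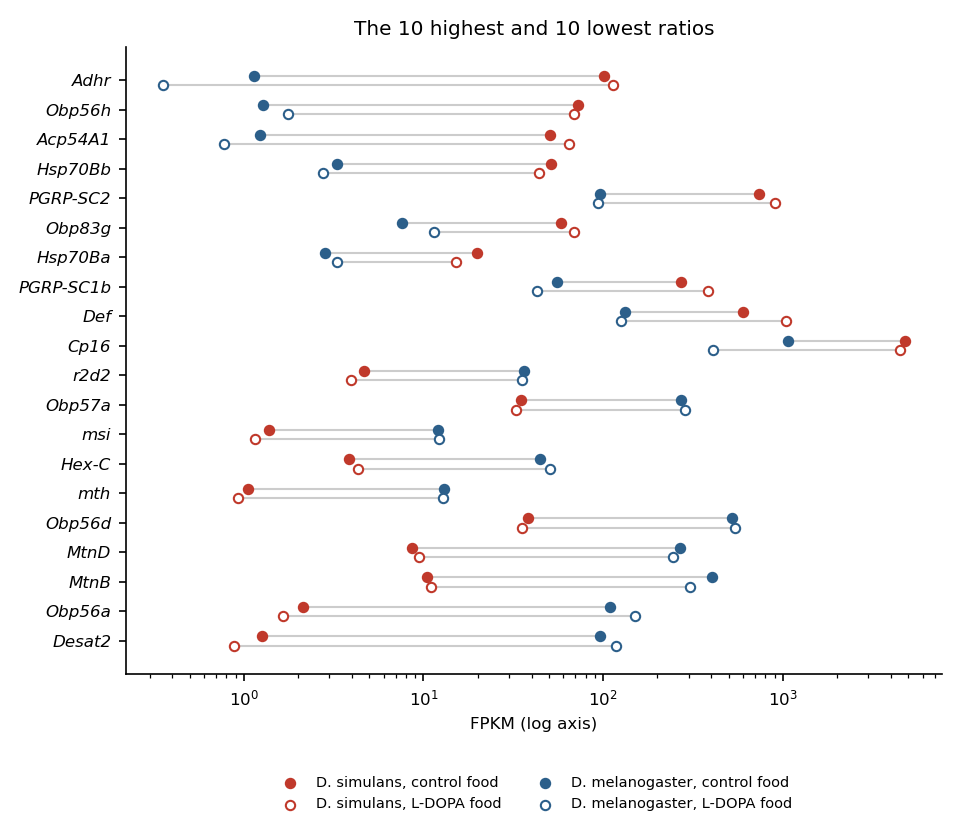
FPKM on a logarithmic axis of the 10 genes with the highest and the 10 with the lowest centred ratio among genes of at least 1 FPKM in both species, from highest at the top to lowest at the bottom, in *D. simulans* (red) and *D. melanogaster* (blue). Filled points are control food and open points L-DOPA food, each the authors' value for 3 pooled libraries. In all 20 genes the order of the species is the same on both foods.

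The odorant-binding proteins, small secreted carriers best known from the fluid around olfactory neurons, ran from -5.42 to 6.07 in centred log2 ratio. Of 44 shared names, 25 reached 1 FPKM in either species, and of these 6 were at least 2-fold higher in *D. simulans* and 8 lower, beside 20.3% and 22.4% of all shared genes. Their median centred log2 ratio was 0.17, against 0.00 over all shared genes, and it is negative with equal sums. Their levels summed to 4869 FPKM in *D. simulans* and 3988 FPKM in *D. melanogaster*.

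*Obp56a* stood at 2.15 FPKM in *D. simulans* and 110 FPKM in *D. melanogaster*, 42.7-fold lower in *D. simulans*. *Obp56d* stood at 38.3 FPKM in *D. simulans* and 519 FPKM in *D. melanogaster*, 11.3-fold lower. *Obp57a* stood at 35.1 FPKM in *D. simulans* and 272 FPKM in *D. melanogaster*, 6.49-fold lower. All 3 lie on chromosome 2R with a locus of their own in both tables, but that of *Obp56a* spans 1854 bp in *D. simulans* and 786 bp in *D. melanogaster*.

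In the other direction, *Obp56h* stood at 72.2 FPKM in *D. simulans* and 1.29 FPKM in *D. melanogaster*, 67.0-fold higher in *D. simulans*. Its *D. simulans* locus entry joins 7 genes over 96099 bp, among them *Obp56g*, while its *D. melanogaster* entry spans 651 bp and holds that gene alone. *Obp56g* itself stood at 67.4 FPKM in *D. simulans* and 18.6 FPKM in *D. melanogaster*. *Obp83g*, with a locus of its own in both tables, stood at 58.6 FPKM in *D. simulans* and 7.63 FPKM in *D. melanogaster*, 9.17-fold higher. The *Obp56* cluster on 2R thus held both the lowest and the highest ratio of the family, and *Obp56e* in the same cluster stood at 253 FPKM in *D. simulans* and 206 FPKM in *D. melanogaster* (0.55, negative with equal sums).

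Of the 4 most abundant members of the family by the mean of both species, *Obp56d* was lower in *D. simulans* as given above, and the other 3 had ratios above 0 under all 4 scalings. *Obp99c* stood at 2477 FPKM in *D. simulans* and 1374 FPKM in *D. melanogaster*, a centred log2 ratio of 1.11 that is 0.37 with equal sums. *Obp99a* stood at 914 FPKM in *D. simulans* and 242 FPKM in *D. melanogaster* (2.17), but on L-DOPA food at 688 FPKM in *D. simulans* and 417 FPKM in *D. melanogaster*, just under 2-fold. *Obp19c* stood at 362 FPKM in *D. simulans* and 220 FPKM in *D. melanogaster* (0.98).

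Immune genes held 40 of the 291 genes, with 7 at least 2-fold higher in *D. simulans*, 11 lower and a median of -0.27, near the 20.3% and 22.4% of all shared genes. Recognition proteins and effectors ran from -3.88 to 3.20, and Toll and Imd signalling genes from -1.86 to 1.43. The peptidoglycan recognition proteins, which bind fragments of bacterial cell walls, were all past 2-fold, 2 higher in *D. simulans* and 4 lower, also under all 4 scalings, though *PGRP-SB1* was within 2-fold on L-DOPA food.

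The 2 higher ones encode amidases that cleave peptidoglycan and dampen the Imd immune response. *PGRP-SC2* stood at 740 FPKM in *D. simulans* and 96.2 FPKM in *D. melanogaster*, 9.19-fold higher in *D. simulans*, with 901 FPKM in *D. simulans* and 94.1 FPKM in *D. melanogaster* on L-DOPA food. *PGRP-SC1b* stood at 272 FPKM in *D. simulans* and 55.4 FPKM in *D. melanogaster*, 5.86-fold higher. The *PGRP-SC1b* locus spans 641 bp in the *D. simulans* table and 1649 bp in the *D. melanogaster* table, whereas those of *PGRP-SC2* span 657 and 746 bp. The *PGRP-SC* genes were among the near-identical copies left out in a setting given below, and the division of reads between such copies was not tested.

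The lower ones were the receptors and a further amidase. *PGRP-SA*, which senses Gram-positive bacteria upstream of Toll, stood at 3.27 FPKM in *D. simulans* and 11.4 FPKM in *D. melanogaster*. *PGRP-SD* stood at 3.48 FPKM in *D. simulans* and 14.2 FPKM in *D. melanogaster*. Its locus entry joins 11 genes in both tables, over 87332 bp in *D. simulans* and 108576 bp in *D. melanogaster*. Other genes of that entry reached 806 FPKM in *D. simulans* and 325 FPKM in *D. melanogaster*. What part the shared entry has in the *PGRP-SD* ratio was not tested. *PGRP-SB1* stood at 10.3 FPKM in *D. simulans* and 32.6 FPKM in *D. melanogaster* on control food, and at 15.9 FPKM in *D. simulans* and 23.7 FPKM in *D. melanogaster* on L-DOPA food (-0.30). *PGRP-LA* stood at 4.39 FPKM in *D. simulans* and 10.6 FPKM in *D. melanogaster*.

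Among antimicrobial peptides, *Def*, which encodes defensin, stood at 604 FPKM in *D. simulans* and 133 FPKM in *D. melanogaster*, 5.43-fold higher in *D. simulans*, and shares its locus entry with other genes in both tables. *Drs*, the antifungal drosomycin, stood at 834 FPKM in *D. simulans* and 1148 FPKM in *D. melanogaster*, within 2-fold (-0.21). *Mtk*, the antifungal metchnikowin, was lower with 14.6 FPKM in *D. simulans* and 63.7 FPKM in *D. melanogaster* (-1.87). Its *D. simulans* entry spans 297 bp and holds it alone, while its *D. melanogaster* entry joins 5 genes over 70789 bp. *CecC*, a cecropin, stood at 0.855 FPKM in *D. simulans* and 15.02 FPKM in *D. melanogaster* (-3.88).

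In the Toll and Imd pathways, which carry the signal from recognition to the antimicrobial genes, all 16 shared genes were measured, with 4 at least 2-fold higher in *D. simulans*, 1 lower and 11 within (over all shared genes 20.3% were higher and 22.4% lower). The higher ones, *cact* (inhibitor of the Toll transcription factors), *nec* (a serpin that restrains Toll), *kappaB-Ras* and *Tehao* (a Toll-like receptor), ran up to a centred log2 ratio of 1.43 and none was past 2-fold under all 4 scalings. *Dredd*, the caspase of the Imd pathway, stood at 3.92 FPKM in *D. simulans* and 17.0 FPKM in *D. melanogaster* (-1.86). It shares its locus entry with *l(1)1Bi*, at 17.8 FPKM in *D. simulans* and 8.35 FPKM in *D. melanogaster*. The transcription factor *Rel* stood at 12.02 FPKM in *D. simulans* and 21.4 FPKM in *D. melanogaster*, and *dl* at 23.4 FPKM in *D. simulans* and 18.2 FPKM in *D. melanogaster*, both within 2-fold. *Thor*, a translational repressor also counted among immune genes, stood at 1020 FPKM in *D. simulans* and 633 FPKM in *D. melanogaster* (0.94).

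**Figure D3:**
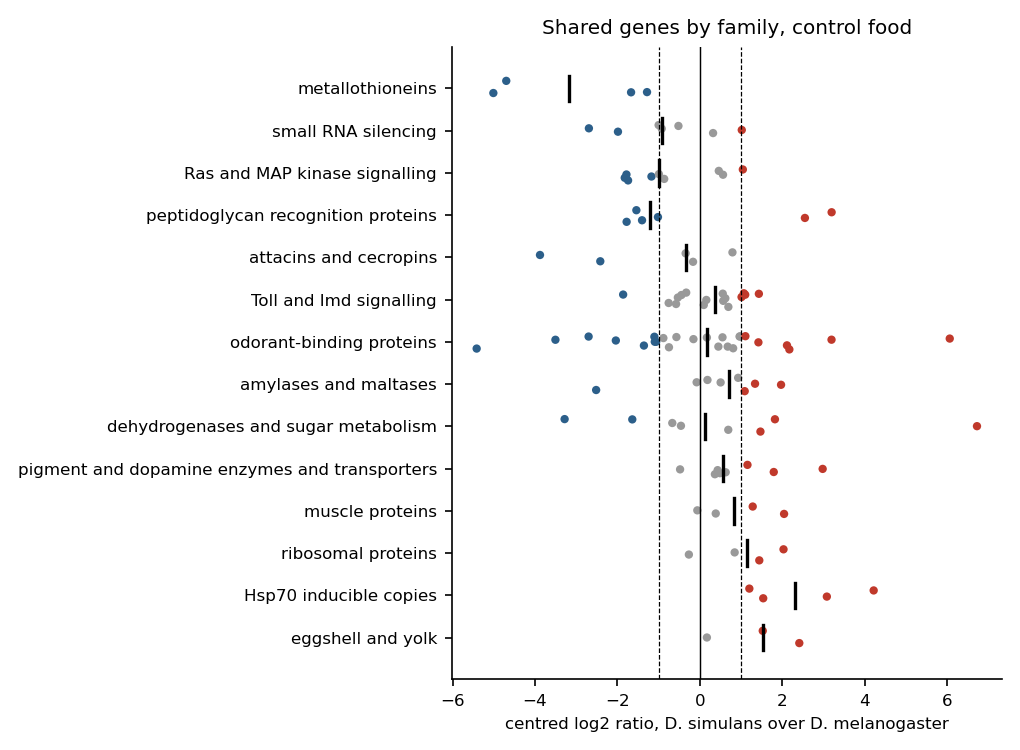
Centred log2 ratio of *D. simulans* over *D. melanogaster* on control food for 14 gene families, 1 point per gene, red at least 2-fold higher in *D. simulans*, blue at least 2-fold lower and grey within 2-fold, with the dashed lines at 2-fold and a black bar at each family's median. All 4 metallothioneins lie left of the lower line and all 4 shared *Hsp70* copies right of the upper line, while odorant-binding proteins run from -5.42 to 6.07. Over all shared genes 22.4% were at least 2-fold lower and 20.3% higher.

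Small RNA silencing runs through 3 pathways, in each of which an Argonaute uses a guide RNA. In the short interfering RNA and microRNA pathways a Dicer makes that guide. Of 7 shared genes, 2 were at least 2-fold lower in *D. simulans* (22.4% over all shared genes) and 1 higher (20.3%), with a median of -0.92. *r2d2*, the partner of Dicer-2 in loading short interfering RNA, stood at 4.69 FPKM in *D. simulans* and 36.2 FPKM in *D. melanogaster*, 6.46-fold lower in *D. simulans*. On L-DOPA food it stood at 3.93 FPKM in *D. simulans* and 35.3 FPKM in *D. melanogaster*. In the *D. melanogaster* table it shares a locus entry with *cdc14*, at 8.22 FPKM.

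*rhi*, the heterochromatin protein that licenses piRNA clusters in the germline, stood at 2.81 FPKM in *D. simulans* and 13.3 FPKM in *D. melanogaster* (-1.99). It shares its locus entry in both species with the more abundant *Oxp*, at 99.2 FPKM in *D. simulans* and 213 FPKM in *D. melanogaster*. What part the shared entry has in the *rhi* ratio was not tested. *Dcr-2* stood at 3.28 FPKM in *D. simulans* and 7.43 FPKM in *D. melanogaster*, and its Argonaute *AGO2* at 31.3 FPKM in *D. simulans* and 53.6 FPKM in *D. melanogaster*, both within 2-fold. *Dcr-1*, the Dicer of the microRNA pathway, was just past 2-fold in the other direction, with 6.20 FPKM in *D. simulans* and 3.65 FPKM in *D. melanogaster*.

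Of 9 shared heat shock and chaperone genes, 4 were at least 2-fold higher in *D. simulans* (20.3% over all shared genes), none was lower (22.4%) and the median was 0.83. The 4 were those copies of *Hsp70*, the stress-inducible chaperone, that have a shared name. The sequences of the copies are nearly identical, so that reads could be placed on any of them and single values are uncertain. *Hsp70Bb* stood at 51.3 FPKM in *D. simulans* and 3.29 FPKM in *D. melanogaster*, *Hsp70Ba* at 20.0 FPKM in *D. simulans* and 2.82 FPKM in *D. melanogaster*, and *Hsp70Aa* at 44.1 FPKM in *D. simulans* and 18.1 FPKM in *D. melanogaster*. The sum of the 4, which depends less on how reads were split among these copies, was 150 FPKM in *D. simulans* and 42.4 FPKM in *D. melanogaster*, a centred log2 ratio of 2.08, or 1.34 with equal sums. Any copy without a shared name is not part of that sum, and its share of the reads was not tested. *Hsp70Bb* is the only one of the 291 genes not placed on the same chromosome arm in both tables, lying on an unplaced *D. simulans* contig with a span of 581 bp against 2347 bp in *D. melanogaster*. The constitutive relatives lay closer, *Hsc70-4* with 2214 FPKM in *D. simulans* and 1704 FPKM in *D. melanogaster*, and *Hsp83* with 854 FPKM in *D. simulans* and 726 FPKM in *D. melanogaster*, both within 2-fold.

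Carbohydrate and central metabolism held 19 genes, 6 at least 2-fold higher in *D. simulans*, 4 lower and a median of 0.49, which is negative with equal sums. Over all shared genes 20.3% were higher and 22.4% lower, so neither count is read as particular to metabolism. *Adhr*, a gene related to alcohol dehydrogenase and transcribed just downstream of it, had the highest ratio of the genes with at least 1 FPKM in both species. It stood at 101 FPKM in *D. simulans* and 1.14 FPKM in *D. melanogaster*, 106-fold higher in *D. simulans*. It shares its locus entry with *Adh* in both tables. *Adh*, the alcohol dehydrogenase itself, stood at 2107 FPKM in *D. simulans* and 3998 FPKM in *D. melanogaster* (-0.67), so that the *Adh* level was far above that of *Adhr* in either species. The part that the division of reads between the overlapping genes has in the *Adhr* ratio was not tested.

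Enzymes of glycolysis and its branches went both ways. *Tpi*, triosephosphate isomerase, stood at 3166 FPKM in *D. simulans* and 1068 FPKM in *D. melanogaster*, 3.54-fold higher in *D. simulans*. *Zw*, the entry enzyme of the pentose phosphate pathway, stood at 54.2 FPKM in *D. simulans* and 23.3 FPKM in *D. melanogaster* (1.47, or 0.73 with equal sums). *Gpdh*, glycerol-3-phosphate dehydrogenase, stood at 200 FPKM in *D. simulans* and 742 FPKM in *D. melanogaster*, 3.11-fold lower. *Hex-C*, a hexokinase, stood at 3.86 FPKM in *D. simulans* and 44.8 FPKM in *D. melanogaster*, 9.72-fold lower, and in the *D. simulans* table it shares a locus entry with an unnamed gene at 88.2 FPKM.

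The amylase genes *Amy-p* and *Amy-d*, which digest starch, are near-identical copies. *Amy-p* stood at 58.9 FPKM in *D. simulans* and 402 FPKM in *D. melanogaster*, *Amy-d* at 281 FPKM in *D. simulans* and 176 FPKM in *D. melanogaster*. Together they summed to 340 FPKM in *D. simulans* and 578 FPKM in *D. melanogaster*, within 2-fold at -0.51 (-1.25 with equal sums). On L-DOPA food the sum lay the other way round, with 1048 FPKM in *D. simulans* and 829 FPKM in *D. melanogaster* (0.61 relative to the median shared gene, other scalings not computed). The *Amy-p* entry spans 488 bp in *D. simulans* and 1668 bp in *D. melanogaster*. *Amyrel*, a diverged relative, stood at 2.26 FPKM in *D. simulans* and 0.687 FPKM in *D. melanogaster* (1.97).

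The list of detoxification, esterase and stress genes held 16 genes, the metallothioneins among them, with 8 at least 2-fold lower in *D. simulans*, 1 higher and a median of -1.03, beside 22.4% lower and 20.3% higher over all shared genes. The median was -0.29 over the 13 genes with at least 1 FPKM in both species. The higher one, *Jheh3*, a juvenile hormone epoxide hydrolase, stood at 79.7 FPKM in *D. simulans* and 40.0 FPKM in *D. melanogaster*. The abundant glutathione transferase *GstD1* stood at 637 FPKM in *D. simulans* and 1306 FPKM in *D. melanogaster* (-0.78). *Est-6*, a secreted esterase, stood at 91.9 FPKM in *D. simulans* and 56.1 FPKM in *D. melanogaster* (0.97). *Ace*, acetylcholinesterase, and *Rdl*, a GABA receptor subunit, both known as insecticide targets, were lower, *Ace* with 0.760 FPKM in *D. simulans* and 3.99 FPKM in *D. melanogaster* and *Rdl* with 0.452 FPKM in *D. simulans* and 1.98 FPKM in *D. melanogaster*.

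In the sex determination cascade, *Sxl* is the switch that is on in females and directs the splicing of *tra*. *Sxl* stood at 5.75 FPKM in *D. simulans* and 41.2 FPKM in *D. melanogaster*, 6.0-fold lower in *D. simulans*. *tra* stood at 104 FPKM in *D. simulans* and 32.9 FPKM in *D. melanogaster*, 3.79-fold higher. Its *D. melanogaster* locus entry also holds *l(3)73Ah*, at 35.5 FPKM. The *Sxl* and *tra* differences were both past 2-fold on L-DOPA food and under all 4 scalings. *fru*, a target of *tra*, stood at 2.01 FPKM in *D. simulans* and 3.81 FPKM in *D. melanogaster* (-0.67).

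Of the egg genes, *Cp16*, a chorion protein, stood at 4784 FPKM in *D. simulans* and 1072 FPKM in *D. melanogaster*, 5.33-fold higher in *D. simulans*, and *Yp2* was 2.88-fold higher (1.53, or 0.79 with equal sums). *Cp16* widened on L-DOPA food, with 4509 FPKM in *D. simulans* and 411 FPKM in *D. melanogaster*. The *Yp2* entry in the *D. simulans* table joins 3 genes over 41751 bp and that of *D. melanogaster* holds 1. Germline regulators lay closer to 0. *otu*, needed for oogenesis, was lower with 19.5 FPKM in *D. simulans* and 59.5 FPKM in *D. melanogaster* (-1.35), while *nos*, the posterior determinant, stood at 80.2 FPKM in *D. simulans* and 108 FPKM in *D. melanogaster* (-0.18).

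Male-typical genes were at most near 1 FPKM apart from 3. *Acp54A1*, named for the male accessory gland, stood at 50.5 FPKM in *D. simulans* females and 1.24 FPKM in *D. melanogaster* females, 48.7-fold higher in *D. simulans*. Its entry spans 1099 bp in *D. simulans* and 306 bp in *D. melanogaster*. *fzo*, a mitochondrial fusion gene of spermatids, had the highest ratio of all 286 genes, with 18.2 FPKM in *D. simulans* and 0.0558 FPKM in *D. melanogaster*. In *D. melanogaster* its locus entry also holds *cnc* at 48.0 FPKM and *Irk1* at 22.3 FPKM, and in *D. simulans* an unnamed gene at 0.0483 FPKM. *janA*, which is also expressed outside the testis, stood at 134 FPKM in *D. simulans* and 101 FPKM in *D. melanogaster* (0.67, negative with equal sums). The other 20 genes of the list were not above 0.673 FPKM in *D. simulans*, and what part the gene models have in the *Acp54A1* and *fzo* values was not tested.

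Ribosomal and muscle protein genes were among the most abundant. *RpL32* stood at 16413 FPKM in *D. simulans* and 7206 FPKM in *D. melanogaster* (1.44), and *sta*, a protein of the small subunit, at 8978 FPKM in *D. simulans* and 2623 FPKM in *D. melanogaster* (2.03). *RpS18* was within 2-fold, with 8911 FPKM in *D. simulans* and 5922 FPKM in *D. melanogaster*, and so was the mitochondrial *mRpS11*. *TpnC47D*, a troponin C, stood at 155 FPKM in *D. simulans* and 44.8 FPKM in *D. melanogaster* (2.05). *Act88F*, the actin of flight muscle, stood at 2043 FPKM in *D. simulans* and 1002 FPKM in *D. melanogaster* (1.28, or 0.54 with equal sums), and *Mlc1*, a myosin light chain, at 1570 FPKM in *D. simulans* and 1955 FPKM in *D. melanogaster* (-0.06).

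Of 7 pigment and dopamine genes, 3 were at least 2-fold higher in *D. simulans*, none was lower and the median was 0.63, which is negative with equal sums (over all shared genes 20.3% were higher and 22.4% lower). *Ddc*, which turns L-DOPA into dopamine, stood at 17.0 FPKM in *D. simulans* and 15.1 FPKM in *D. melanogaster* (0.43), and *e*, which couples dopamine to beta-alanine, at 6.56 FPKM in *D. simulans* and 5.07 FPKM in *D. melanogaster* (0.63), both negative with equal sums. *Catsup*, which regulates tyrosine hydroxylase and was named after its value was seen, stood at 63.1 FPKM in *D. simulans* and 45.5 FPKM in *D. melanogaster* (0.73, or -0.01 with equal sums). *Dat*, dopamine N-acetyltransferase, stood at 97.8 FPKM in *D. simulans* and 52.4 FPKM in *D. melanogaster* (1.16, or 0.42 with equal sums). *v*, tryptophan oxygenase of the brown eye pigment pathway, stood at 32.1 FPKM in *D. simulans* and 11.1 FPKM in *D. melanogaster* (1.79). The other higher gene was *y*, low in both with 1.57 FPKM in *D. simulans* and 0.237 FPKM in *D. melanogaster*, whose locus entries join 12 genes in *D. simulans* and 20 in *D. melanogaster*.

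Genes of hybrid incompatibility and of the centromere concern this pair of species directly. *Hmr* and *Lhr*, which together cause the death of hybrid sons, stood at 5.18 FPKM in *D. simulans* and 2.43 FPKM in *D. melanogaster* for *Hmr* (1.35, or 0.61 with equal sums), and at 4.40 FPKM in *D. simulans* and 4.99 FPKM in *D. melanogaster* for *Lhr* (0.08). *Nup160*, a nucleoporin of the same field, stood at 8.69 FPKM in *D. simulans* and 10.5 FPKM in *D. melanogaster* (-0.02). *cid*, the centromeric histone, was lower with 5.67 FPKM in *D. simulans* and 25.3 FPKM in *D. melanogaster* (-1.90), and *Mcm3*, a replication helicase subunit, higher with 97.1 FPKM in *D. simulans* and 26.8 FPKM in *D. melanogaster* (2.11). Over the 11 genes of this list 3 were at least 2-fold higher, 1 lower and the median was 0.08, beside 20.3% higher and 22.4% lower over all shared genes.

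Growth factor signals reach the nucleus through Ras and the MAP kinases. A group of 9 shared genes of Ras and MAP kinase signalling was drawn more widely than that cascade. Of these, 4 were at least 2-fold lower in *D. simulans* (22.4% over all shared genes) and 1 higher (20.3%), with a median of -0.99. The lower ones were *Src64B*, *drk*, *Ras64B* and *Dsor1*, and the higher one was *lic*. *drk*, the adaptor between receptors and Sos, stood at 8.85 FPKM in *D. simulans* and 36.3 FPKM in *D. melanogaster*, and *Dsor1*, the MAP kinase kinase, at 6.27 FPKM in *D. simulans* and 16.9 FPKM in *D. melanogaster*. The *D. melanogaster* locus entry of *drk* also holds *mars*, at 22.1 FPKM. *Sos* itself was within 2-fold, with 8.19 FPKM in *D. simulans* and 7.11 FPKM in *D. melanogaster* (0.46, negative with equal sums). This and the other small families were drawn up after the values had been seen.

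Of 14 embryo and cell fate regulators, 4 were at least 2-fold lower in *D. simulans*, 3 higher and the median was -0.39, near the shares of 22.4% and 20.3% over all shared genes. *Ubx*, a homeotic gene, stood at 0.359 FPKM in *D. simulans* and 1.35 FPKM in *D. melanogaster*. The receptor *N* was higher, with 5.66 FPKM in *D. simulans* and 2.24 FPKM in *D. melanogaster* (1.59), while its ligand *Dl* stood at 2.88 FPKM in *D. simulans* and 4.31 FPKM in *D. melanogaster* (-0.33).

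Several genes outside the lists also had extreme ratios. *mth*, a receptor known from its effect on life span, stood at 1.05 FPKM in *D. simulans* and 13.0 FPKM in *D. melanogaster*, 10.4-fold lower in *D. simulans*. *msi*, the RNA-binding protein Musashi, stood at 1.39 FPKM in *D. simulans* and 12 FPKM in *D. melanogaster*, 7.25-fold lower. *mth* and *msi* share locus entries with other genes in both tables. *unc-13*, which primes synaptic vesicles, stood at 2.07 FPKM in *D. simulans* and 12.7 FPKM in *D. melanogaster* (-2.36). Among neuropeptide genes, *Eh*, eclosion hormone, had the lowest ratio of all with 0.0442 FPKM in *D. simulans* and 3.54 FPKM in *D. melanogaster*, whereas *Crz*, corazonin, was higher with 10.6 FPKM in *D. simulans* and 4.36 FPKM in *D. melanogaster* (1.53). The *D. simulans* entry of *Eh* spans 14131 bp and is shared with an unnamed gene, while the *D. melanogaster* entry spans 2217 bp and holds it alone. On L-DOPA food *Eh* was listed at 0 in *D. simulans*. *Ntf-2r*, known in *D. melanogaster* as a retrocopy of *Ntf-2*, stood at 0.4002 FPKM in *D. simulans* and 14.6 FPKM in *D. melanogaster*, and *Ntf-2* at 34.4 FPKM in *D. simulans* and 106 FPKM in *D. melanogaster*. The *D. simulans* entry of *Ntf-2r* joins 5 genes over 18461 bp, while the *D. melanogaster* entry spans 771 bp and holds it alone. The division of reads between *Ntf-2* and *Ntf-2r* was not tested.

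The small RNA genes are hairpin loci of microRNAs, which a library of selected messenger RNA does not capture as such. Of 102 shared names 9 reached 1 FPKM, and several were above 0 on 1 food and listed at 0 on the other in the same species. *mir-285* was listed at 0 in *D. melanogaster* on both foods and stood at 49.9 FPKM on control food and 47.6 FPKM on L-DOPA food in *D. simulans*. *mir-100* was at 24.6 FPKM in *D. simulans* on control food and listed at 0 in the other 3 values. *mir-2494*, which was above 0 everywhere, stood at 236 FPKM in *D. simulans* and 367 FPKM in *D. melanogaster* (-0.38).

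The same ratio on L-DOPA food rests on other libraries. There 64 of 282 genes were at least 2-fold higher in *D. simulans* (22.7%) and 61 lower (21.6%), 44.3% in all. Of 57 genes higher on control food with a ratio on both, 49 were past 2-fold on L-DOPA food and none had the opposite sign. The other 8 were *Dcr-1*, *Hmr*, *Hsp70Ab*, *Mal-B2*, *Obp99a*, *Sry-alpha*, *beta4GalT7* and *kappaB-Ras*. Of 62 lower genes, 55 were past 2-fold and 1, *AttA*, had the opposite sign. Also not past 2-fold there were *Hk*, *MtnC*, *Obp57b*, *PGRP-SB1*, *Rh50* and *dpp*. The Pearson correlation of the centred ratios was 0.93 and the Spearman correlation 0.94 over 282 genes, which share strains, gene models and tables on both foods. The median gene shifted by 0.19 on the log2 scale between foods, 234 shifted by under 0.5, and 15 by 1 or more.

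**Figure D4:**
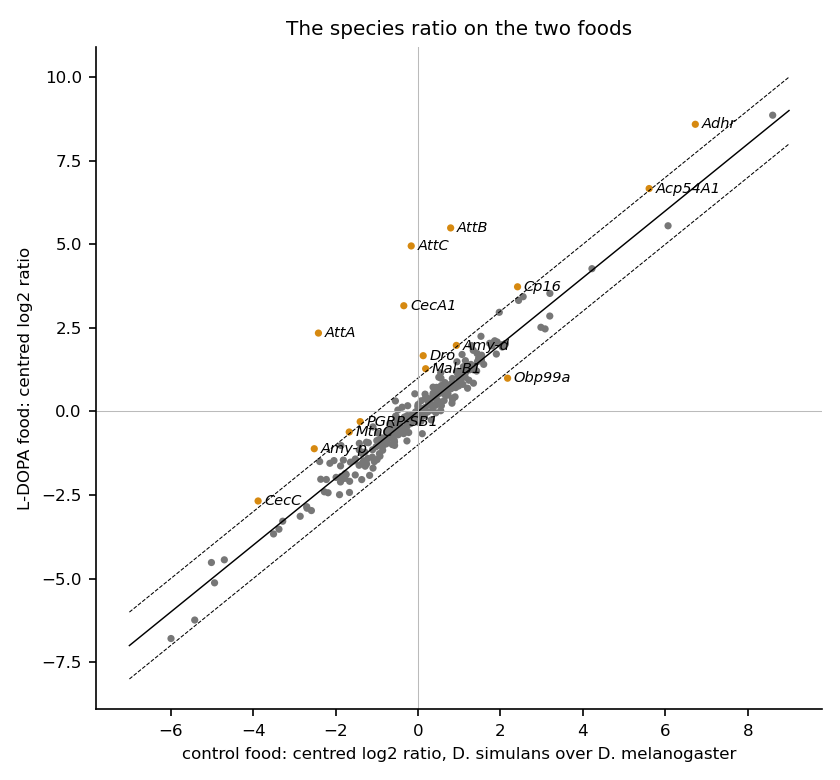
Centred log2 ratio of *D. simulans* over *D. melanogaster* on control food (horizontal) and on L-DOPA food (vertical) for 282 genes. The solid line marks equal ratios and the dashed lines a shift of 1, and the 15 genes shifted by 1 or more are orange and named. *AttA*, *AttB*, *AttC* and *CecA1* stand furthest above the line.

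The genes whose species ratio depended most on food were antimicrobial peptide genes. *AttA*, an attacin, stood at 2.07 FPKM in *D. simulans* and 13.2 FPKM in *D. melanogaster* on control food, and at 30.6 FPKM in *D. simulans* and 7.27 FPKM in *D. melanogaster* on L-DOPA food, so its centred log2 ratio was -2.41 on control food and 2.34 on L-DOPA food. *AttC* stood at 12.3 FPKM in *D. simulans* and 16.5 FPKM in *D. melanogaster* on control food, and at 103 FPKM in *D. simulans* and 4.02 FPKM in *D. melanogaster* on L-DOPA food. *CecA1*, a cecropin, stood at 7.36 FPKM in *D. simulans* and 11.2 FPKM in *D. melanogaster* on control food, and at 52.4 FPKM in *D. simulans* and 7.07 FPKM in *D. melanogaster* on L-DOPA food. For these genes the control ratio alone does not describe the pair of species.

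*AttA* and *AttB* are near-identical copies, and their sum was 16.5 FPKM in *D. simulans* and 23.1 FPKM in *D. melanogaster* on control food. On L-DOPA food the sum was 136 FPKM in *D. simulans* and 10.1 FPKM in *D. melanogaster*. *Def* and the amidases *PGRP-SC1b* and *PGRP-SC2* were higher in *D. simulans* on both foods. *CecC* was lower on both, with 0.713 FPKM in *D. simulans* and 5.50 FPKM in *D. melanogaster* on L-DOPA food. How many of the 3 libraries of a pool carried the attacin and cecropin values is not shown by the files.

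**Figure D5:**
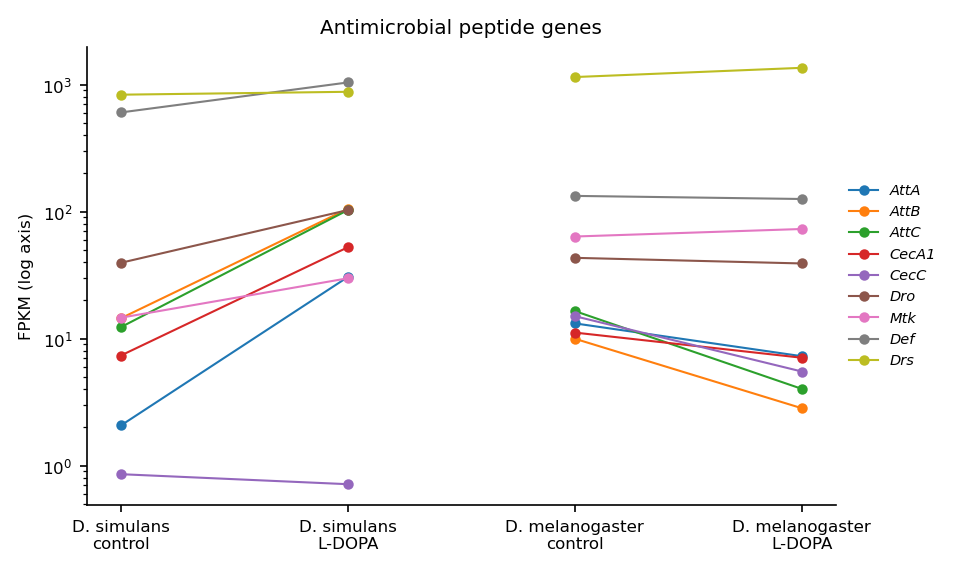
FPKM, on a logarithmic axis, of 9 antimicrobial peptide genes in *D. simulans* (left) and *D. melanogaster* (right), on control and on L-DOPA food, 1 authors' value of 3 pooled libraries per point, with lines joining the foods within a species. *AttA*, *AttB*, *AttC*, *CecA1* and *Dro* stand higher on L-DOPA food than on control food in *D. simulans*, and none of these 5 does in *D. melanogaster*.

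Features of the gene models were set beside the ratios. The tables give overlapping genes a common locus entry, which 116 of the 291 genes have in *D. simulans* and 145 in *D. melanogaster*. Of 126 genes with an entry of their own in both, 43.7% were past 2-fold (26 higher in *D. simulans*, 29 lower), against 41.9% of the 160 others (32 higher, 35 lower). Where the 2 loci were within 1.5-fold in length, 37.5% of 216 genes were past 2-fold, against 58.6% of 70 genes whose loci differed more. The wide ratios of *MtnB*, *Obp56d*, *Obp57a*, *Obp83g*, *PGRP-SC2*, *Cp16* and *TpnC47D* stand on own entries of similar length in both tables.

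The share past 2-fold was also set beside length. Of 279 genes with an annotated exonic length, in 3 groups of 93, 55.9% of the shortest (up to 1597 bp), 38.7% of the middle and 33.3% of the longest (from 3074 bp) were past 2-fold, while the Spearman correlation of the signed ratio with exonic length was -0.12. The signed ratio had a Spearman correlation of 0.21 with the mean log2 FPKM.

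By chromosome arm the share past 2-fold ran from 37.1% of 35 genes on 3L to 53.6% of 56 genes on 2R among the long arms and the X. On the small, largely heterochromatic chromosome 4, 4 of 7 genes (*unc-13*, *pho*, *pan* and *ci*) were at least 2-fold lower in *D. simulans* and none was higher, with a median of -1.29. *pho*, which recruits Polycomb proteins, stood at 16.6 FPKM in *D. simulans* and 73.1 FPKM in *D. melanogaster* and has its own locus entry in both tables. *Rad23*, which had the highest ratio on that chromosome, stood at 103 FPKM in *D. simulans* and 91.0 FPKM in *D. melanogaster* (0.44, negative with equal sums). With 7 genes, no statement about the chromosome is drawn.

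For 103 of the 291 genes the *D. sechellia* table holds the same unique name, normalized separately again. The median over genes of at least 1 FPKM was 27.7 FPKM in that table, beside 13.5 FPKM in the *D. simulans* table and 15.4 FPKM in the *D. melanogaster* table. *Desat2* stood at 124 FPKM in *D. sechellia* on control food, beside 1.27 FPKM in *D. simulans* and 96.3 FPKM in *D. melanogaster*. *MtnB* stood at 3907 FPKM in *D. sechellia*, beside 10.5 FPKM in *D. simulans* and 405 FPKM in *D. melanogaster*. *Obp56a* was listed at 0 in *D. sechellia*, beside 2.15 FPKM in *D. simulans* and 110 FPKM in *D. melanogaster*, and *Obp56d* stood at 512 FPKM in *D. sechellia*, beside 38.3 FPKM in *D. simulans* and 519 FPKM in *D. melanogaster*. *Sxl* stood at 74.4 FPKM in *D. sechellia*, beside 5.75 FPKM in *D. simulans* and 41.2 FPKM in *D. melanogaster*. *Adhr* stood at 1.38 FPKM in *D. sechellia*, beside 101 FPKM in *D. simulans* and 1.14 FPKM in *D. melanogaster*, and *Obp56h* at 14.97 FPKM in *D. sechellia*, beside 72.2 FPKM in *D. simulans* and 1.29 FPKM in *D. melanogaster*. In *Desat2*, *MtnB*, *Obp56d* and *Sxl* *D. simulans* was the lowest of the 3 species.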

How the data were processed

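Messenger RNA of whole adult females was sequenced by the authors as single-end reads, aligned to BDGP6 (*D. melanogaster*) or ASM75419v3 (*D. simulans*) with Bowtie2 under default settings, and quantified with Cuffdiff under geometric normalization with length correction, in versions not given in the sources used here. Bowtie2 does not split reads across introns and places a read that fits several copies on 1 of them. The deposited FPKM values are 1 per gene and food, pooled by Cuffdiff over 3 libraries in each of 3 tables normalized separately. The tables also hold the authors' fold changes and test results between foods, which were not used. No column was left without a group.

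Genes were matched by identical, unique symbols and kept at a minimum of 1 FPKM in either species. The log2 ratio of *D. simulans* over *D. melanogaster*, without a pseudocount, was centred on its median. Genes listed at 0 in 1 species got no ratio. The 2-fold limit is a rule of size, since pooled values allow no test, error or interval, and depth is not in the files. Ratios were also computed with other minimums, scalings, a pseudocount, without shared loci or unequal spans, and on L-DOPA food. Symbols were compared with Ensembl release 115 of BDGP6, which holds 288 of the 291 identifiers on the same arm as the table. Python 3.11.15, pandas 2.3.3, numpy 2.4.6 and scipy 1.17.1 were used, and the ratio and its counts were tested on simulated data.

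Genes were drawn for description by these rules: the 10 highest and 10 lowest ratios among genes of at least 1 FPKM in both species, genes listed at 0 in 1 species with at least 10 FPKM in the other, the 5 most abundant genes, up to 4 of the most abundant of each list, the 5 genes whose ratio differed most between foods, *Est-6* and the *PGRP* genes, which the study names, and genes at the limits. Others, such as *Eh*, *y*, *Crz*, *rhi*, *Catsup* and *Ntf-2r*, were named after their values were seen. The genes and lists were chosen with earlier results of these data known.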

Additional observations from a re-analysis of the deposited data

How the results depend on the processing

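All values are pools of 3 libraries, so leaving out a library was not possible. No paired analysis was possible because the tables hold no value per library. With the tables rescaled to the same sum, 23 genes were at least 2-fold higher in *D. simulans* and 123 lower, against 58 and 64. Re-centred on the genes kept, 27 of 126 were higher and 28 lower without genes that share a locus entry (26 and 29 as centred on all shared genes), and 42 of 216 were lower with loci within 1.5-fold in length (41 as centred on all). Equal sums moved the median log2 ratio to -1.07 for clock and sex behaviour genes, -1.13 for embryo and cell fate regulators and -1.01 for immune genes. The median of detoxification, esterase and stress genes, -1.03, was -0.29 with 1 FPKM in both species, -0.30 with 10 FPKM in either, -0.94 with no minimum, -0.81 with a pseudocount of 1, -0.53 with the table status OK in both species and -0.79 on L-DOPA food. The median of ribosome and translation genes, 1.14 over 4 genes, was 0.89 without centring, 0.41 with equal sums, 0.96 with centring on genes of at least 10 FPKM and 0.87 without shared loci. The median of heat shock and chaperone genes, 0.83, was 1.56 without shared loci, and that of pigment and dopamine genes, 0.63, was 1.13 with 10 FPKM in either species. *AttA* turned to 2.34 on L-DOPA food. Leaving out near-identical copies, chosen after seeing the data, gave 52 higher and 61 lower. With a pseudocount of 1, 51 of the 58 higher and 55 of the 64 lower genes were still past 2-fold on the same side. Depth could not be weighed, since the files hold no counts.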
